A study of Caenorhabditis elegans with 32 samples.

Results

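The genes described here are the saposin-like proteins, lysozymes and gut proteases of Caenorhabditis elegans, taken as every entry of the gene count table whose name has the prefix spp, lys, ilys, cpr or asp followed by a number. The rule found 64 genes among 46926 entries: 23 spp, 10 lys, 6 ilys, 8 cpr and 17 asp genes. Enough counts for a test were present for 49 of them in polysome libraries (18 spp, 9 lys, 4 ilys, 7 cpr and 11 asp genes) and for 48 in lysate libraries (17 spp genes and the same numbers of the others). When both kinds of library were fitted together, 50 were tested.

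The study compared strains that lack LOTR-1, a protein of germ granules, or 1 of its domains. The delta-LOTR-1 strain DUP207 carried a full in-frame deletion (allele sam117). In delta-LOTUS (DUP217, sam113) the LOTUS domain was deleted and in delta-Tudor (DUP185, sam102) the Tudor domain. The wild type control (DUP167, sam85) had intact lotr-1 with an N-terminal 3xFLAG::GFP tag, and the labels give this tag in the genotype of every strain. All were day 1 adult hermaphrodites, harvested as whole animals from synchronized cultures on OP50 bacteria, with 4 replicates per strain, numbered 1 to 4 in the labels. Each replicate lysate gave 2 libraries, polysome-associated mRNA from a sucrose gradient and total lysate mRNA, so that there were 4 polysome and 4 lysate libraries per strain and 32 in all. Each genotype was held by a single strain, so an effect of lotr-1 cannot be told apart from other sequence differences between strains.

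Saposin-like proteins of the worm, also called caenopores, include small pore-forming proteins that permeabilise the membranes of ingested bacteria, and spp-10 encodes a relative of prosaposin, the precursor of lysosomal lipid-handling saposins. Lysozymes cleave bacterial cell walls; lys genes encode the protist type and ilys genes the invertebrate type. The cpr genes encode cathepsin B-like cysteine proteases and the asp genes aspartyl proteases related to cathepsin D, enzymes that degrade protein in the gut lumen and in lysosomes. In the worm the intestine is the main organ of digestion and a site of defence against food bacteria.

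Polysome libraries held 26987460 to 36156397 counts and lysate libraries 31447844 to 40197831. The floor of detection, taken as 3 counts, corresponded to at most 0.131 CPM (the usual scaling of counts to a common library size) in a polysome library and 0.0880 CPM in a lysate library. Levels are given as CPM on library sizes scaled by the trimmed mean of M-values (TMM). No gene length was used, so levels are compared between libraries and not between genes. The counts of lotr-1 in the lysates were 78.4, 80.8, 43.0 and 28.1 CPM in delta-LOTR-1, against 305, 329, 203 and 107 CPM in wild type, in the order of replicate numbers 1 to 4. In polysome libraries they were 112, 125, 63.3 and 41.6 CPM in those labelled delta-LOTR-1, against 111, 103, 55.8 and 40.6 CPM in wild type. The lysates labelled delta-LOTR-1 were lower in each number, with a log2 change of -2.06 ± 0.10 (SE; adjusted p = 2.51e-08, edgeR's quasi-likelihood test with replicate number as a block; adjusted p = 0.127 without it). In the polysome libraries the blocked change was 0.12 ± 0.11 (adjusted p = 0.829), so lotr-1 counts do not separate those labelled delta-LOTR-1 from wild type. Total counts of the gene do not check the 2 domain deletions. Markers of the intestine were present in every library: all 13 of a fixed list were tested in each fraction, and their summed level was 1800.7 to 3930.4 CPM in polysome libraries and 894.7 to 3006.7 CPM in lysate libraries. Whole animals were sequenced, so where the transcripts of the 64 genes were made was not tested.

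Of the 64 genes, 14 entered no test: spp-6, spp-11, spp-20, spp-21, lys-9, ilys-1, ilys-6, cpr-2, asp-7, asp-9, asp-15, asp-16, asp-18 and asp-19. None of the 14 had more than 74 counts over all 32 libraries or more than 9 counts in any library, and ilys-6 had none. The lysate libraries also left out spp-9 and spp-12, and the polysome libraries left out spp-12. In the RefSeq annotation of assembly WBcel235, in which all 64 names were found, 31 of the genes lay next to another of them, forming 20 neighbouring pairs. Among these runs were spp-3, spp-2, spp-6, spp-4 and spp-5, the lysozyme runs lys-1, lys-2 and lys-3 and lys-4, lys-5 and lys-6, the pair spp-17 and spp-23, the pair cpr-5 and cpr-8, and asp-17, asp-16, asp-15 and asp-1. In lys-4, lys-5, lys-6, spp-17 and spp-23 the deposited estimates were fractional in all 32 libraries, as when reads are divided between entries. They were fractional in 31 libraries for asp-1 and asp-6, in 30 for asp-2 and in 25 for asp-5. Values of each of these genes taken singly are therefore uncertain. Another 23 genes, with ilys-6 among them, had whole values only.

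The 64 genes together took 2.39% ± 0.242 (SD, n = 4) of all counts in polysome libraries labelled delta-LOTR-1, 2.25% ± 0.150 in delta-LOTUS, 2.27% ± 0.137 in delta-Tudor and 2.18% ± 0.103 in wild type. In the lysates they took 1.47% ± 0.354 in delta-LOTR-1, 1.37% ± 0.237 in delta-LOTUS, 1.38% ± 0.318 in delta-Tudor and 1.45% ± 0.284 in wild type. Mutant and wild type shares overlapped in both fractions, whereas every polysome share (2.05% to 2.70%) lay above every lysate share (1.11% to 1.95%). The asp genes held the largest part of these counts, 1.27% ± 0.209 of polysome and 0.810% ± 0.228 of lysate libraries (SD, n = 16 each). The cpr genes held 0.460% ± 0.114 and 0.330% ± 0.0357, and the spp genes 0.259% ± 0.0327 and 0.123% ± 0.0211. The ilys genes held 0.152% ± 0.0171 and 0.0753% ± 0.00806, and the lys genes 0.134% ± 0.0249 and 0.0796% ± 0.0236.

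**Figure D1:**
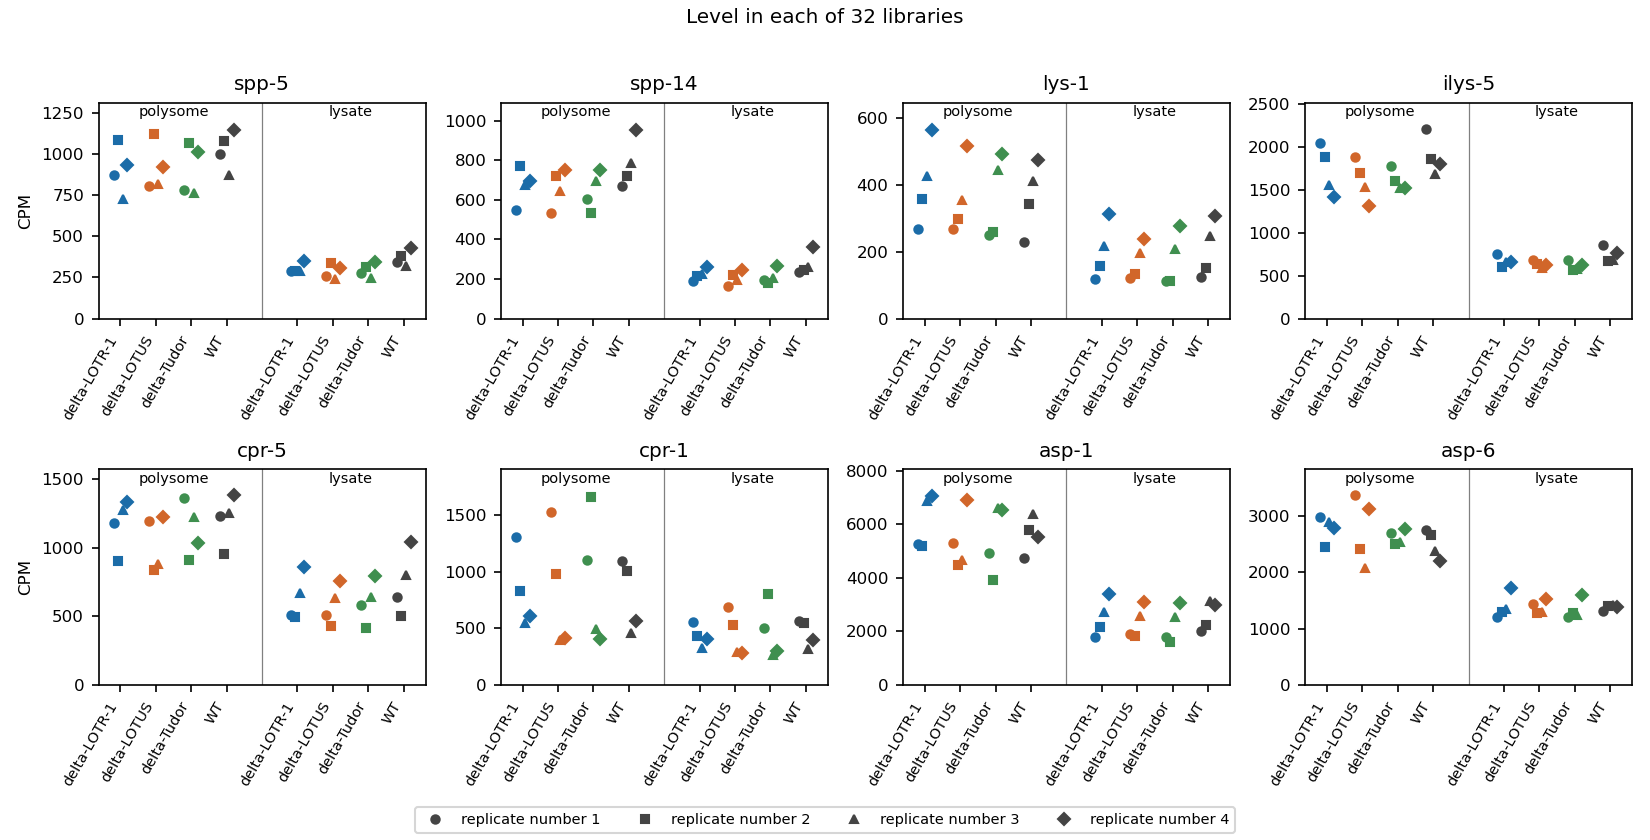
CPM of 8 genes in all 32 libraries; polysome libraries are on the left of each panel and lysate libraries on the right, grouped by labelled strain, with a marker shape for each replicate number. For spp-5, spp-14, ilys-5, asp-1 and asp-6 every polysome library lies above every lysate library, while in both fractions the mutant strains overlap wild type.

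Genes of all 5 families were higher in the polysome libraries than in the lysates the labels pair them with, in each of the 4 strains. In wild type 23 of 50 genes tested were higher in polysome libraries and none was lower (adjusted p under 0.05, edgeR's quasi-likelihood test over 16253 genes), where 9.59% of all genes tested were higher and 9.72% lower. The count was 28 in the libraries labelled delta-LOTR-1, where 11.6% of all genes were higher and 11.7% lower. It was 29 in delta-LOTUS (11.8% and 11.9%) and 28 in delta-Tudor (11.7% and 12.3%), again with none lower. All 23 genes called in wild type were called in each mutant too: 11 spp, 4 lys, 1 ilys, 2 cpr and 5 asp genes. The median log2 difference of the 50 genes was 0.97 in those labelled delta-LOTR-1, 1.00 in delta-LOTUS, 1.01 in delta-Tudor and 0.87 in wild type, against 0.03, 0.06, 0.03 and 0.07 over all genes. In 41 of the 50 genes the polysome library exceeded its own lysate library in all 16 lysates, as in 23.5% of all genes tested, and in 47 genes in at least 12 of 16, as in 40.7%. Without the lysates labelled delta-LOTR-1 it was higher in all 12 others for 42 of the 50 genes and 25% of all genes.

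Per the labels the 2 libraries of a replicate came from 1 lysate, so the lysate could also be fitted as a block. Of the libraries labelled delta-LOTR-1, the lysates differed from wild type in lotr-1 counts and the polysome libraries did not, so lotr-1 does not check the labels of these polysome libraries. With the block 44 genes were higher in the libraries labelled delta-LOTR-1, 45 in delta-LOTUS, 46 in delta-Tudor and 45 in wild type, with none lower. Over all genes that fit called 30.5%, 31.4%, 30.6% and 29% higher and 27.8%, 27.8%, 28.5% and 26.6% lower in the same 4 strains. The size of this difference depended on the scaling. With library totals in place of TMM the median of all genes in wild type was -0.28 and that of the 50 genes 0.51, and with DESeq2 size factors the median of all genes was -0.05. With library totals 16 of the 50 genes were called higher in the libraries labelled delta-LOTR-1, 18 in delta-LOTUS, 17 in delta-Tudor and 15 in wild type, and none lower. In the same order 5.28%, 5.73%, 5.32% and 4.13% of all genes were higher and 21.9%, 20.6%, 21.3% and 20.1% lower. Over all genes in wild type that scaling gave 671 higher and 3265 lower calls, against 1559 higher and 1580 lower with TMM. A difference between fractions is relative to the other transcripts of each library and does not give the number of ribosomes on a transcript.

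**Figure D2:**
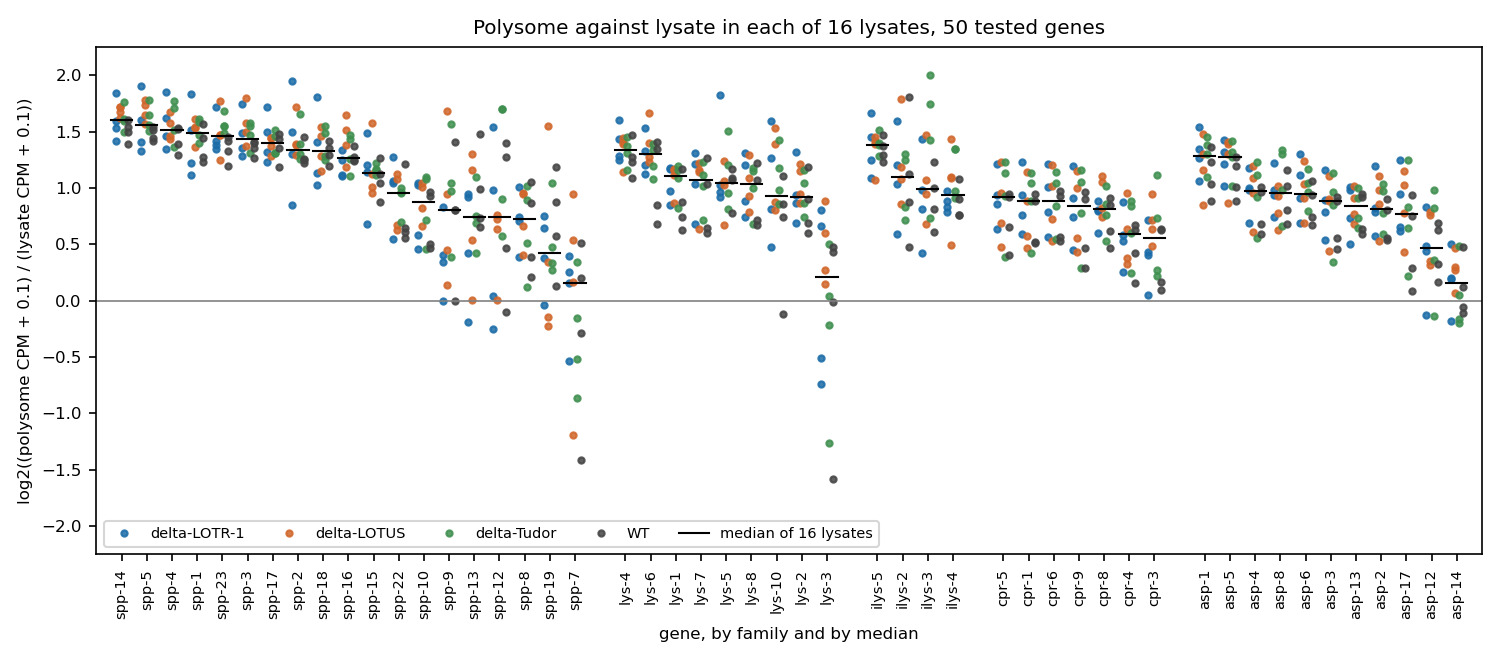
The log2 ratio of CPM in the polysome library to CPM in its own lysate library (0.1 CPM added to each) for the 50 tested genes, by family; points are single lysates coloured by strain and bars are medians of 16 lysates. In 41 of 50 genes all 16 points lie above 0, as for 23.5% of all genes tested, the median of spp-14 is 1.60, and spp-7, lys-3 and asp-14 scatter around 0.

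Saposin-like genes had the highest family median, a log2 difference of 1.31 in wild type with 11 of 19 called, and 1.20, 1.39 and 1.39 in those labelled delta-LOTR-1, delta-LOTUS and delta-Tudor. For spp-5, which encodes the pore-forming caenopore 5, polysome libraries 1 to 4 held 874, 1086, 724 and 932 CPM in those labelled delta-LOTR-1, 804, 1119, 819 and 919 in delta-LOTUS, 783, 1068, 763 and 1014 in delta-Tudor and 1000.4, 1081, 874 and 1147 in wild type. In the lysates spp-5 measured 287, 290.2, 288 and 351 CPM in delta-LOTR-1, 257, 337, 238 and 310.0 in delta-LOTUS, 276, 312, 244 and 344 in delta-Tudor and 345, 379, 322 and 429 in wild type. The fractions did not overlap, and the wild type difference was 1.48 ± 0.16 (SE; adjusted p = 8.49e-08), and the highest polysome library was number 2 in each mutant and number 4 in wild type.

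The saposin-like gene spp-14 had 549.7, 770.2, 676 and 695 CPM in those labelled delta-LOTR-1, 531, 720.5, 644 and 751 in delta-LOTUS, 603, 534, 694 and 751 in delta-Tudor and 670.3, 719, 789 and 953 in wild type in polysome libraries. Its lysate values were 189.9, 215, 224 and 261 CPM in delta-LOTR-1, 167, 219, 196 and 245 in delta-LOTUS, 197, 177, 204 and 266 in delta-Tudor and 237, 247, 259.7 and 364 in wild type. Polysome values again all exceeded lysate values, by 1.50 ± 0.17 (SE; adjusted p = 2.84e-07) in wild type and by log2 ratios of 1.39 to 1.84 over the 16 lysates, and replicate number 4 of wild type was the highest library of both fractions.

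For spp-17 the polysome values were 253, 605, 336 and 365 CPM in those labelled delta-LOTR-1, 199, 467, 297 and 339 in delta-LOTUS, 274, 279.6, 323 and 359 in delta-Tudor and 314, 534, 383 and 468 in wild type. In lysate libraries spp-17 had 89.4, 184, 135 and 155 CPM in delta-LOTR-1, 77.1, 172, 109 and 139 in delta-LOTUS, 99.1, 113, 113 and 145 in delta-Tudor and 117, 192, 150.2 and 206 in wild type. The ranges met, since polysome number 1 of delta-LOTUS lay below the highest wild type lysate, but each polysome library exceeded its own lysate, and the wild type difference was 1.35 ± 0.29 (SE; adjusted p = 0.00108).

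The prosaposin relative spp-10 had polysome values of 295, 319, 208 and 215 CPM in those labelled delta-LOTR-1, 277, 316, 209 and 245 in delta-LOTUS, 274, 282, 206 and 210.4 in delta-Tudor and 277, 318, 204 and 206 in wild type. Its lysate libraries measured 143, 156, 139 and 156 CPM in delta-LOTR-1, 134, 157, 132 and 139 in delta-LOTUS, 130.0, 132, 126 and 153 in delta-Tudor and 145, 163, 147 and 146 in wild type. The fractions did not overlap, with a wild type difference of 0.74 ± 0.16 (SE; adjusted p = 0.0013), and polysome numbers 1 and 2 were the high ones in every strain. Other called saposin-like genes had wild type differences of 1.37 ± 0.21 (SE; adjusted p = 1.85e-05) for spp-1, which encodes an amoebapore-like antibacterial protein, and 1.43 ± 0.17 (SE; adjusted p = 4.19e-07) for spp-4. The gene spp-3, next to spp-2 on the chromosome, differed by 1.35 ± 0.18 (SE; adjusted p = 3.15e-06). Its neighbour spp-2 had 1.31 ± 0.53 (SE; adjusted p = 0.0837), which did not pass the test, and with the lysate as a block passed in all 4 strains (1.30 ± 0.13, adjusted p = 2.22e-07 in wild type).

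Among the lysozymes, the lys family had a median of 0.96 in wild type with 4 of 9 called, and the ilys family 1.20 with 1 of 4 called. Polysome libraries had for lys-4 601, 497, 609 and 918 CPM in those labelled delta-LOTR-1, 619, 483, 479 and 801 in delta-LOTUS, 502, 620.5, 571 and 772 in delta-Tudor and 526, 487, 638 and 896 in wild type. Lysate libraries had for lys-4 222, 163, 249.7 and 387 CPM in delta-LOTR-1, 234, 178, 218 and 306 in delta-LOTUS, 194, 227, 230.4 and 345 in delta-Tudor and 217, 176, 272 and 420.1 in wild type. No polysome value reached down to the lysate values, the wild type difference was 1.23 ± 0.28 (SE; adjusted p = 0.00266), and number 4 was the highest library of each strain in both fractions.

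For lys-1, a gut lysozyme of the antibacterial response, polysome libraries measured 267, 356, 426 and 564 CPM in those labelled delta-LOTR-1, 268, 298, 355 and 516 in delta-LOTUS, 251, 259, 443 and 491 in delta-Tudor and 229, 342, 411 and 473 in wild type. In lysates the values of lys-1 were 119, 158, 217 and 312 CPM in delta-LOTR-1, 119.7, 133, 195 and 238 in delta-LOTUS, 112, 113, 208 and 278 in delta-Tudor and 125, 152, 246 and 307 in wild type. Numbers 3 and 4 were high and numbers 1 and 2 low in both fractions, and the ranges overlapped. The wild type difference of 0.81 ± 0.36 (SE; adjusted p = 0.124) did not pass the test, although the polysome library was the higher in all 16 lysates. With the lysate as a block lys-1 passed in all 4 strains (0.85 ± 0.10, adjusted p = 5.84e-07 in wild type).

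The gene lys-8 gave 241, 256, 264 and 350.1 CPM in those labelled delta-LOTR-1, 243, 221, 219 and 308 in delta-LOTUS, 219, 229.5, 263 and 295 in delta-Tudor and 219.6, 266, 264 and 326 in wild type in polysome libraries. In lysates lys-8 had 96.8, 111, 143 and 209.7 CPM in delta-LOTR-1, 99.1, 103.95, 127 and 162 in delta-LOTUS, 96.9, 103, 131 and 184 in delta-Tudor and 104.48, 114, 161 and 205 in wild type. Fractions did not overlap and differed by 0.88 ± 0.24 (SE; adjusted p = 0.0112) in wild type, and number 4 was high in both fractions. The invertebrate-type lysozyme gene ilys-5 had polysome values of 2040.4, 1884, 1562 and 1412 CPM in those labelled delta-LOTR-1, 1879.7, 1691, 1538 and 1307 in delta-LOTUS, 1775, 1608, 1524 and 1525 in delta-Tudor and 2204, 1856, 1680.2 and 1804 in wild type. Its lysate values were 747, 596, 659 and 663 CPM in delta-LOTR-1, 685, 634, 585 and 624 in delta-LOTUS, 683, 564, 578 and 625 in delta-Tudor and 854, 672, 688 and 769 in wild type. With a wild type difference of 1.34 ± 0.12 (SE; adjusted p = 1.20e-08) and log2 ratios of 1.07 to 1.66 over 16 lysates, ilys-5 did not overlap between fractions, and number 1 was the highest library of each strain in both.

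The other invertebrate-type genes given by library are ilys-4 and ilys-2. Polysome libraries held 3.33, 4.26, 5.99 and 9.26 CPM in those labelled delta-LOTR-1, 3.48, 4.36, 7.07 and 6.55 in delta-LOTUS, 3.27, 3.80, 6.37 and 11.2 in delta-Tudor and 3.65, 3.90, 8.05 and 9.71 in wild type for ilys-4. Lysate libraries held 1.83, 2.13, 3.43 and 4.96 CPM in delta-LOTR-1, 1.58, 1.99, 2.55 and 4.62 in delta-LOTUS, 1.70, 1.43, 3.20 and 4.36 in delta-Tudor and 2.12, 1.79, 4.27 and 5.68 in wild type for ilys-4. Numbers 3 and 4 were high in both fractions, and the wild type difference was 0.87 ± 0.49 (SE; adjusted p = 0.24), which became 0.89 ± 0.14, adjusted p = 2.77e-05 with the lysate as a block.

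For ilys-2 the polysome values were 0.721, 2.64, 0.292 and 1.71 CPM in those labelled delta-LOTR-1, 0.65, 2.99, 0.73 and 1.15 in delta-LOTUS, 0.786, 3.15, 0.375 and 1.05 in delta-Tudor and 0.186, 2.18, 0.405 and 1.39 in wild type. Its lysate values were 0.301, 0.812, 0.16 and 0.685 CPM in delta-LOTR-1, 0.229, 0.792, 0.357 and 0.493 in delta-LOTUS, 0.274, 1.22, 0.189 and 0.547 in delta-Tudor and 0.0558, 0.553, 0.264 and 0.587 in wild type. Number 2 was the highest polysome library of every strain, fractions overlapped, and the wild type difference of 1.50 ± 0.83 (SE; adjusted p = 0.233) did not pass the test. With the lysate as a block it was 1.41 ± 0.26, adjusted p = 0.000148, and both ilys-4 and ilys-2 passed in all 4 strains.

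The cathepsin B-like genes had a median of 0.69 in wild type with 2 of 7 called. For cpr-6 polysome libraries had 1692, 1761, 1097 and 1142 CPM in those labelled delta-LOTR-1, 1681, 1797, 826 and 909 in delta-LOTUS, 1602, 1740.2, 1079.7 and 982 in delta-Tudor and 1717, 1719.7, 1018 and 1234 in wild type. In the lysates cpr-6 had 731, 875, 635 and 772 CPM in delta-LOTR-1, 728, 889, 571 and 551 in delta-LOTUS, 778, 791, 604 and 671 in delta-Tudor and 877, 906, 687 and 857 in wild type. Polysome numbers 1 and 2 were high in every strain, polysome number 3 of delta-LOTUS fell among the lysate values, and the wild type difference was 0.77 ± 0.24 (SE; adjusted p = 0.025).

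The gene cpr-9 had 1921, 1468, 1035 and 859 CPM in those labelled delta-LOTR-1, 1909, 1552, 730.2 and 846 in delta-LOTUS, 1617, 1859, 945 and 711 in delta-Tudor and 1821, 1591, 884 and 889 in wild type in polysome libraries. It had 837, 781, 617 and 630.4 CPM in delta-LOTR-1, 858, 776, 541 and 577 in delta-LOTUS, 778, 834, 551 and 583 in delta-Tudor and 933, 849.9, 638 and 726 in wild type in lysates. Numbers 1 and 2 were above numbers 3 and 4 in every strain and both fractions, the fractions overlapped, and the wild type difference of 0.72 ± 0.32 (SE; adjusted p = 0.12) did not pass, whereas with the lysate as a block cpr-9 passed in all 4 strains (0.66 ± 0.15, adjusted p = 0.00146 in wild type).

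For cpr-5 the polysome values were 1182, 902, 1277 and 1333 CPM in those labelled delta-LOTR-1, 1196, 833, 883 and 1220.0 in delta-LOTUS, 1362, 913, 1225 and 1037 in delta-Tudor and 1233, 950.1, 1254 and 1381 in wild type. Lysate values of cpr-5 were 508, 497, 668 and 859.7 CPM in delta-LOTR-1, 511, 431, 634 and 757 in delta-LOTUS, 582, 417, 644 and 794 in delta-Tudor and 641, 503, 798 and 1043 in wild type. Here number 2 was the lowest library of each strain in both fractions and number 4 the highest lysate, ranges overlapped, and the wild type difference was 0.69 ± 0.23 (SE; adjusted p = 0.0352).

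The gut cysteine protease gene cpr-1 had polysome values of 1305, 832, 550.0 and 608 CPM in those labelled delta-LOTR-1, 1526, 977, 400.4 and 417 in delta-LOTUS, 1104, 1665, 489.8 and 405 in delta-Tudor and 1091, 1009, 454 and 563 in wild type. Lysates gave 558, 435, 325 and 403 CPM in delta-LOTR-1, 690.4, 530.3, 290.0 and 279 in delta-LOTUS, 505, 807, 265 and 303 in delta-Tudor and 566, 547, 316 and 396 in wild type for cpr-1. In both fractions numbers 1 and 2 were above numbers 3 and 4 in every strain. The fractions overlapped, and the wild type difference was 0.77 ± 0.47 (SE; adjusted p = 0.285). With the lysate as a block cpr-1 also passed in all 4 strains (0.72 ± 0.13, adjusted p = 0.000148 in wild type).

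Aspartyl protease genes had a median of 0.75 in wild type with 5 of 11 called. The intestinal protease gene asp-1 measured 5247, 5168, 6846 and 7050.0 CPM in those labelled delta-LOTR-1, 5280.2, 4462, 4649 and 6899 in delta-LOTUS, 4921, 3908, 6615 and 6541 in delta-Tudor and 4752, 5774, 6380.1 and 5510.1 in wild type in polysome libraries. Its lysate libraries measured 1798, 2151, 2702 and 3377 CPM in delta-LOTR-1, 1898, 1811, 2575 and 3088 in delta-LOTUS, 1802, 1585, 2533 and 3056 in delta-Tudor and 2027, 2241, 3122 and 2987 in wild type. No polysome library overlapped a lysate library, and the wild type difference was 1.11 ± 0.23 (SE; adjusted p = 0.000931). Its estimates were fractional in 31 of 32 libraries.

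For asp-6 the polysome libraries had 2989.9, 2451, 2897 and 2788 CPM in those labelled delta-LOTR-1, 3379, 2414, 2082 and 3119.8 in delta-LOTUS, 2709, 2497, 2539.6 and 2776 in delta-Tudor and 2758, 2670.0, 2387 and 2210.1 in wild type. In lysates asp-6 had 1211, 1303, 1341 and 1729.8 CPM in delta-LOTR-1, 1431, 1283, 1294 and 1526 in delta-LOTUS, 1206, 1281, 1234 and 1598 in delta-Tudor and 1318, 1395, 1426 and 1391 in wild type. Number 4 was the highest lysate of each mutant, the fractions did not overlap, and the wild type difference was 0.86 ± 0.13 (SE; adjusted p = 1.71e-05). The estimates of asp-6 were fractional in 31 libraries too.

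The gene asp-3, whose product acts with other proteases in the execution of necrotic cell death in worm neurons, had polysome values of 1811, 1808, 2589.8 and 2793 CPM in those labelled delta-LOTR-1, 1818, 1716, 1694 and 3020.0 in delta-LOTUS, 1778, 1578, 2242 and 2227 in delta-Tudor and 1688, 1943, 2282 and 2490.3 in wild type. In lysates asp-3 gave 813, 1049.5, 1397 and 1922 CPM in delta-LOTR-1, 846, 930.1, 1246 and 1614 in delta-LOTUS, 809.9, 809, 1246 and 1760.3 in delta-Tudor and 917, 1026, 1553 and 1811 in wild type. Numbers 3 and 4 were the high lysates in every strain, fractions overlapped, and the wild type difference of 0.66 ± 0.29 (SE; adjusted p = 0.112) did not pass, and asp-3 passed in all 4 strains with the lysate as a block (0.70 ± 0.13, adjusted p = 0.000148 in wild type).

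For asp-5 the polysome libraries held 1385, 1354, 1988 and 2336 CPM in those labelled delta-LOTR-1, 1486, 1160.2, 1434 and 2481 in delta-LOTUS, 1340.5, 1103, 1931 and 2147 in delta-Tudor and 1239.9, 1370.2, 1887 and 1858 in wild type. The lysates held 516, 584, 796 and 1152 CPM in delta-LOTR-1, 559, 472, 786 and 945 in delta-LOTUS, 504, 455, 775 and 1059 in delta-Tudor and 543, 568, 937 and 1006 in wild type for asp-5. Numbers 3 and 4 were the high lysates in every strain, while in polysome libraries number 1 of delta-LOTUS exceeded its number 3, and the wild type difference was 1.06 ± 0.32 (SE; adjusted p = 0.0198). Its estimates were fractional in 25 of 32 libraries. The cathepsin D-like gene asp-4 differed by 0.82 ± 0.14 (SE; adjusted p = 8.41e-05) and asp-13 by 0.75 ± 0.22 (SE; adjusted p = 0.0153).

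The lowest of these values in wild type belonged to spp-7, lys-3, asp-14, cpr-3 and asp-12, none of which passed without the lysate as a block. The log2 differences in wild type were -0.65 ± 1.33 (SE; adjusted p = 0.848) for spp-7 and -0.01 ± 0.65 (SE; adjusted p = 0.996) for lys-3. For asp-14 the value was 0.04 ± 0.56 (SE; adjusted p = 0.988), for cpr-3 0.35 ± 0.30 (SE; adjusted p = 0.506) and for asp-12 0.36 ± 0.52 (SE; adjusted p = 0.748). The polysome library of spp-7 was above its lysate in 9 of 16 lysates, that of lys-3 in 10 and that of asp-14 in 11, and with the lysate as a block these 3 were called in no strain. That of cpr-3 was above its lysate in 16 and that of asp-12 in 14. With the block both were called higher in all 4 strains, in wild type at 0.38 ± 0.16, adjusted p = 0.0474 for cpr-3 and 0.45 ± 0.17, adjusted p = 0.0323 for asp-12. The gene spp-9, which had counts in 25 of 32 libraries, had 1.41 ± 1.34 (SE; adjusted p = 0.557), and 1.48 ± 0.44, adjusted p = 0.00974 with the block.

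Other gene groups measured in the same wild type comparison gave the following counts. Of 20 V-ATPase genes, whose products acidify lysosomes, 11 were higher in polysome libraries and none lower, with a median log2 difference of 0.65; vha-10 differed by 1.25 ± 0.21 (adjusted p = 8.10e-05), vha-8 by 0.73 ± 0.18 and vha-2 by 0.70 ± 0.10. Of 28 other lysosome and gut granule genes 7 were higher and none lower, with a median of 0.38, among them the lysosomal membrane protein gene lmp-1 (0.83 ± 0.11; adjusted p = 2.71e-06) and the cathepsin Z-like gene cpz-1 (0.89 ± 0.20). Of 21 tested immune effector genes outside the 5 families 5 were higher, with a median of 0.85. Among 13 intestine markers none passed and the median was 0.54, with act-5, an intestinal actin, at 0.70 ± 0.47. The 6 vitellogenin genes, which encode yolk proteins made by the intestine of adult hermaphrodites, had a median of -0.66 with none called, and of 10 germ line markers 4 were lower, with a median of -0.60. Mean summed levels in wild type lysate and polysome libraries were 267 and 588 CPM for sperm markers and 225 and 343 CPM for neuron markers. For oocyte markers they were 5709 and 4424 CPM. Higher polysome levels were therefore not limited to gut and lysosome genes. The part of the makeup of each fraction in the values of the 50 genes was not tested.

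Levels also differed between replicate numbers. The numbers were shared by the 4 strains, and same-numbered libraries of different strains deviated together (r = 0.931 to 0.983 across 7174 genes in lysates and 0.815 to 0.965 in polysome libraries), so numbers were tested as a factor with strain as a term. Different-numbered libraries of different strains ranged from r = -0.972 to 0.956 in lysates and -0.954 to 0.932 in polysome libraries. Some of these pairs therefore correlated as highly as same-numbered ones. In the polysome libraries 45 of 49 genes differed between numbers, where 78.5% of all genes did, and in the lysates 47 of 48, where 87.7% did. The distance between the highest and lowest number had a median of 0.72 log2 units over the genes in polysome libraries and 0.99 in lysates, against 1.00 and 1.19 over all genes. The numbers have no order, and the labels give them no day or batch.

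In the lysates 38 of 48 genes were highest in number 4, 6 in number 2, 4 in number 1 and none in number 3. All 11 asp genes were highest in number 4. The number in which each of all tested genes was highest was not counted. These counts are therefore not shown to be particular to these genes. For lys-2 the log2 levels relative to the mean of the numbers were -0.75, -0.66, 0.30 and 1.11 in numbers 1 to 4. A smaller group had the opposite order, with numbers 1 and 2 above numbers 3 and 4: lys-7, a lysozyme gene of the immune response, had 0.77, 1.03, -0.99 and -0.81, and lys-10 had 0.60, 1.97, -1.43 and -1.14. The cysteine protease genes cpr-1, cpr-6 and cpr-9 and the saposin-like genes spp-2, spp-15 and spp-18 also had both of numbers 1 and 2 above both of numbers 3 and 4. With DESeq2 size factors in place of TMM, the highest number moved to number 2 for spp-3, spp-5, spp-10, spp-17, cpr-4 and asp-4 and to number 1 for lys-6, and with library totals to number 1 for cpr-1; the other 40 kept theirs under both.

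The largest differences between numbers in the lysates were in spp-13 (distance 5.22), spp-7 (4.88), lys-10 (3.40), lys-7 (2.01) and ilys-2 (1.97). The smallest were in spp-10 (0.16), ilys-5 (0.25), asp-4 (0.31), asp-6 (0.33) and spp-5 (0.41). The only gene that did not pass was ilys-3, at 1.23 with an adjusted p of 0.256. For spp-13 the lysates of numbers 1 to 4 held 0.219, 0.336, 3.11 and 12.5 CPM in delta-LOTR-1, 0.153, 0.44, 1.41 and 2.12 in delta-LOTUS, 0.301, 0.398, 2.36 and 7.23 in delta-Tudor and 0.251, 0.132, 4.43 and 16.3 in wild type. Numbers 1 and 2 were at or below 0.44 CPM in every strain and number 4 was the highest library of every strain. In polysome libraries the largest distances were in spp-13 (5.15), spp-9 (4.95), lys-10 (4.00), spp-7 (3.60) and ilys-2 (2.60), and the smallest in asp-6 (0.26), spp-8 (0.29), ilys-5 (0.39), asp-13 (0.40) and spp-14 (0.41). The low ends for spp-7 and spp-9 lay at or near the floor of 3 counts. In lysates spp-7 averaged 0.075 CPM in number 1 and 0.089 in number 2. In number 2 of the polysome libraries spp-9 averaged 0.017 CPM and spp-7 0.109. The size of their distances is therefore uncertain.

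**Figure D3:**
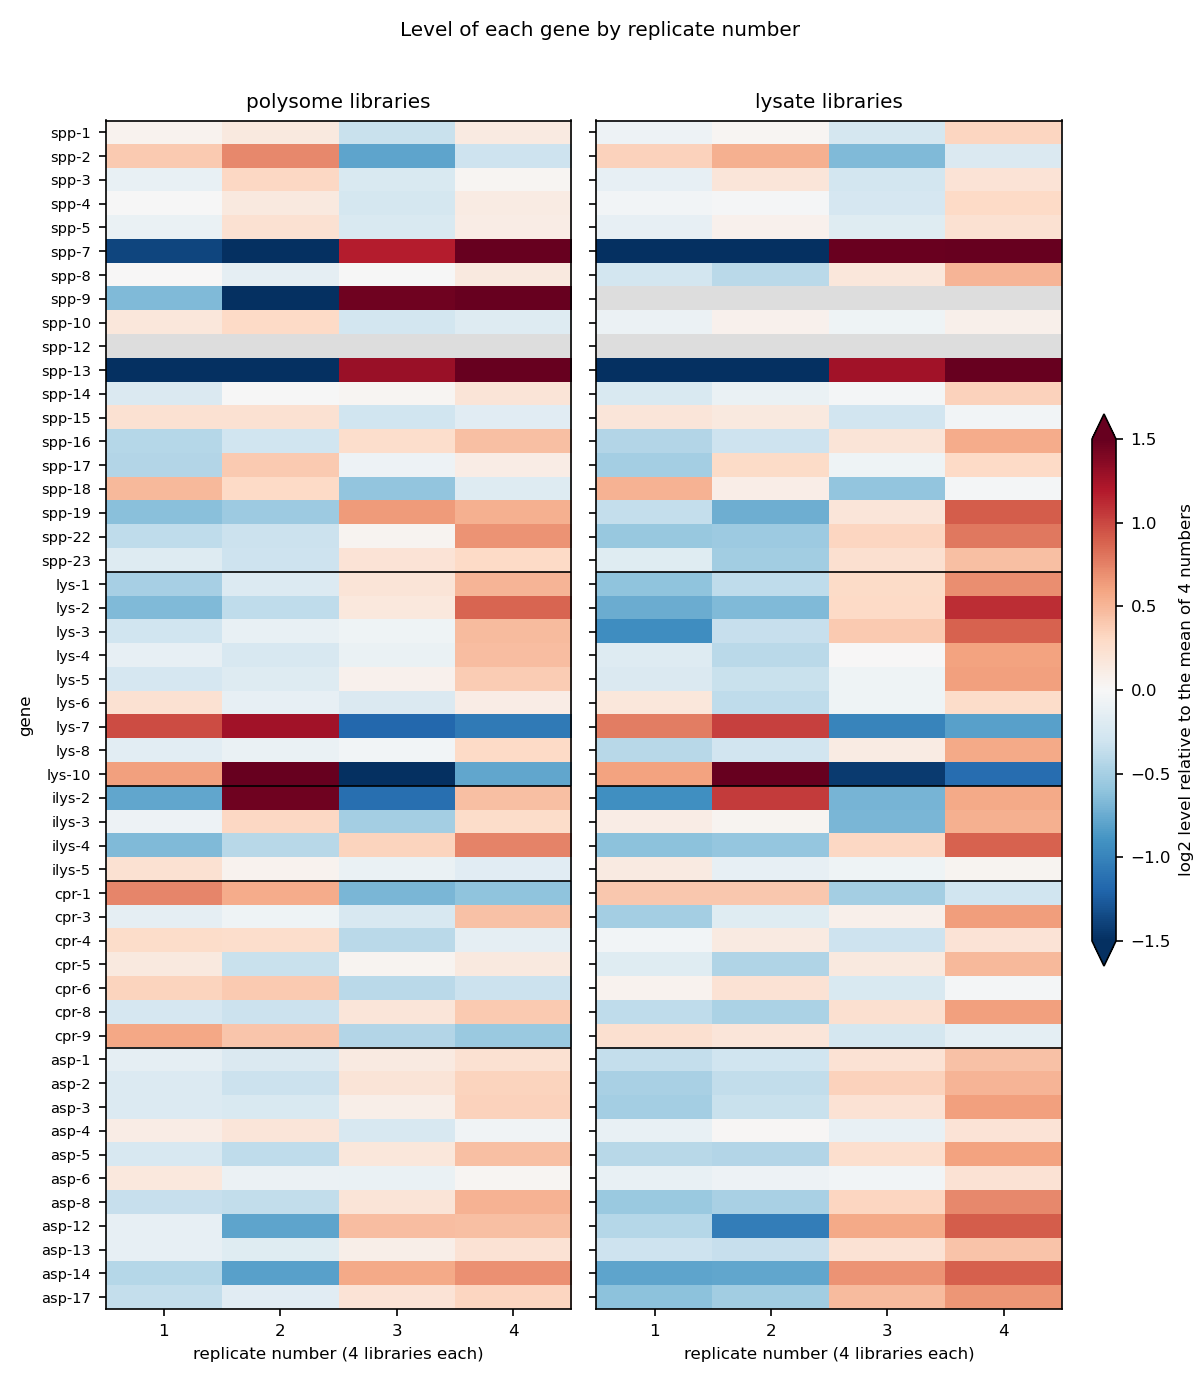
Log2 level of each tested gene in each replicate number relative to the mean of the 4 numbers, polysome libraries on the left and lysate libraries on the right; grey marks a gene not tested in that fraction and the colour scale ends at 1.5 in either direction. In the lysates 38 of 48 genes are highest in number 4, and lys-7, lys-10 and cpr-1 are higher in numbers 1 and 2 than in 3 and 4. The share of all genes highest in number 4 was not counted.

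Markers of several tissues moved with replicate number as well. The summed level of 13 intestine markers in the lysates was 904.0 to 1060.0 CPM in number 1, 894.7 to 1278.6 in number 2, 2206.9 to 2559.1 in number 3 and 2656.3 to 3006.7 in number 4, and 11 of the 13 were highest in number 4. The 9 hypodermis and cuticle markers had a median distance of 5.70 log2 units between numbers and 10 sperm markers 3.38, with 8 of 9 and 9 of 10 highest in number 4. The 8 oocyte markers had 2.14 and the 6 vitellogenin genes 1.77, all lowest in number 4. Their part in the values of the 64 genes was not tested, and fewer cells of a type cannot be told apart from less RNA per cell in whole animals.

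Whether the difference between numbers was the same in both fractions was tested as an interaction, in which 11 of 50 genes passed, where 24.1% of all genes did. They were spp-10, cpr-9, spp-8, lys-8, cpr-5, cpr-6, asp-4, lys-2, cpr-3, asp-3 and ilys-5. In each of the 11 the polysome level relative to lysate was higher in numbers 1 and 2 than in numbers 3 and 4. This order was not counted over all genes and is not shown to be particular to these genes. Intestine markers had median deviations of 0.27, 0.16, -0.10 and -0.26, and body muscle markers 0.35, 0.04, -0.09 and -0.24. Among the comparison lists, only the medians of the sperm markers and of a list of regulator genes did not have this order. For cpr-9 the log2 deviations of that difference were 0.32, 0.22, -0.16 and -0.38 in numbers 1 to 4.

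The comparisons the study was designed for, each mutant against wild type within a fraction, called none of these genes. With strain as the only term, edgeR's quasi-likelihood test called 0 of 49 genes in polysome libraries and 0 of 48 in lysates in each of the 3 mutants, and DESeq2 also called 0. That fit left the spread between replicate numbers in its error. By the same edgeR test lotr-1 itself was not called in delta-LOTR-1 lysates (-2.06 ± 0.45, SE; adjusted p = 0.127). The 0 calls therefore do not show that levels were unchanged. Over all genes 0.221% were called in the polysome libraries labelled delta-LOTR-1, 0.0585% in delta-LOTUS and 0.0975% in delta-Tudor, and in lysates 0.27%, 0.144% and 0.0753%. At an unadjusted p under 0.05 there were 1, 1 and 1 genes in polysome libraries and 0, 4 and 4 in lysates, where over all genes there were 228, 370 and 179 of 15378 in polysome libraries and 509, 776 and 625 of 15939 in lysates. In the lysates spp-5 had log2 changes of -0.30 ± 0.16 (SE; adjusted p = 1) in delta-LOTR-1, -0.39 ± 0.16 (adjusted p = 0.854) in delta-LOTUS and -0.37 ± 0.16 (adjusted p = 1) in delta-Tudor. For each of the 18 genes shown library by library, every mutant overlapped wild type in both fractions. Each range pooled 4 replicate numbers, between which 47 of 48 genes in lysates and 45 of 49 in polysome libraries differed. Overlap of such ranges therefore does not test a strain difference. Among the other genes, spp-8 in delta-Tudor and asp-17 in those labelled delta-LOTR-1 did not overlap wild type in polysome libraries. Overlap was not counted over all genes.

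Since the replicate numbers were taken to pair the samples, each mutant was also compared with wild type with number as a block. This fit called genes in the lysates, all of them lower. In delta-LOTR-1 5 of 48 genes were lower, where 5.36% of all genes were lower and 2.46% higher. In delta-LOTUS 17 were lower, where 11.1% of all genes were lower and 9.47% higher, and in delta-Tudor 16, where 7.89% were lower and 5.7% higher. The genes called in all 3 mutants were spp-3, spp-4, spp-5, spp-14 and cpr-5, another 10 were called in delta-LOTUS and delta-Tudor, and 18 genes were called in at least 1 mutant. The median log2 change of the 48 genes was -0.09 in delta-LOTR-1, -0.19 in delta-LOTUS and -0.21 in delta-Tudor, against medians of 0.01, -0.01 and -0.00 over all genes.

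The saposin-like genes accounted for 4, 8 and 7 of these calls, with family medians of -0.27 in delta-LOTR-1, -0.34 in delta-LOTUS and -0.35 in delta-Tudor. The log2 change of spp-14 was -0.32 ± 0.08 (SE; adjusted p = 0.0249) in delta-LOTR-1, -0.43 ± 0.08 (adjusted p = 0.00224) in delta-LOTUS and -0.42 ± 0.08 (adjusted p = 0.0044) in delta-Tudor. In every mutant the spp-14 level was below the same-numbered wild type lysate in 4 of 4 pairs. The adjacent genes spp-4 and spp-5 were also lower in all 3: spp-4 changed by -0.32 ± 0.08, -0.31 ± 0.08 and -0.42 ± 0.08 in delta-LOTR-1, delta-LOTUS and delta-Tudor, and spp-5 by -0.29 ± 0.07, -0.39 ± 0.07 and -0.37 ± 0.07. Each was below wild type in 4 of 4 pairs of each mutant. The blocked fit that called these genes used the same pairs, so the pair counts are not separate support. In the same run of genes spp-2 did not pass in any mutant, at -0.20 ± 0.30, -0.03 ± 0.30 and 0.03 ± 0.30.

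For spp-23 the lysate values were 14.8, 11.3, 16.6 and 17.5 CPM in delta-LOTR-1, 9.96, 8.31, 15.8 and 15.98 in delta-LOTUS, 12.7, 9.19, 15.7 and 16.9 in delta-Tudor and 15.3, 12.6, 20.4 and 29.5 in wild type. Each mutant library lay below the wild type library of its number, while the groups as a whole overlapped. The changes of spp-23 were -0.34 ± 0.11 in delta-LOTR-1, which did not pass (adjusted p = 0.0818), -0.64 ± 0.11 in delta-LOTUS (adjusted p = 0.00195) and -0.53 ± 0.11 in delta-Tudor (adjusted p = 0.0089). Its neighbour spp-17, with which it may share reads, changed by -0.46 ± 0.12 in delta-LOTUS and -0.50 ± 0.12 in delta-Tudor. The change of spp-13 in delta-LOTUS was -1.70 ± 0.43 (adjusted p = 0.0136, edgeR's quasi-likelihood test with the block). Delta-LOTUS was below wild type in numbers 1, 3 and 4 and above it in number 2. In numbers 1 and 2 no strain exceeded 0.44 CPM, so the change rests mainly on numbers 3 and 4. DESeq2 with the block did not call spp-13, and it was called in 12 of 16 fits with 1 library left out.

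Of the other families, cpr genes gave 1, 4 and 3 of the calls in delta-LOTR-1, delta-LOTUS and delta-Tudor, lys genes 0, 2 and 2, ilys genes 0, 1 and 1, and asp genes 0, 2 and 3. The log2 change of cpr-5 was -0.24 ± 0.06, -0.36 ± 0.06 and -0.32 ± 0.06 in delta-LOTR-1, delta-LOTUS and delta-Tudor. The lysozyme gene ilys-5 changed by -0.25 ± 0.06 in delta-LOTUS and -0.32 ± 0.06 in delta-Tudor and had -0.18 ± 0.06 in delta-LOTR-1, which did not pass (adjusted p = 0.0694). Among the aspartyl protease genes, asp-4 changed by -0.23 ± 0.06 and -0.21 ± 0.06 in the 2 domain deletions. The family median of the asp genes was 0.07, -0.13 and -0.14. The largest positive value in the lysates, ilys-3 at 0.89 ± 0.58 in delta-LOTR-1, did not pass (adjusted p = 0.376).

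**Figure D4:**
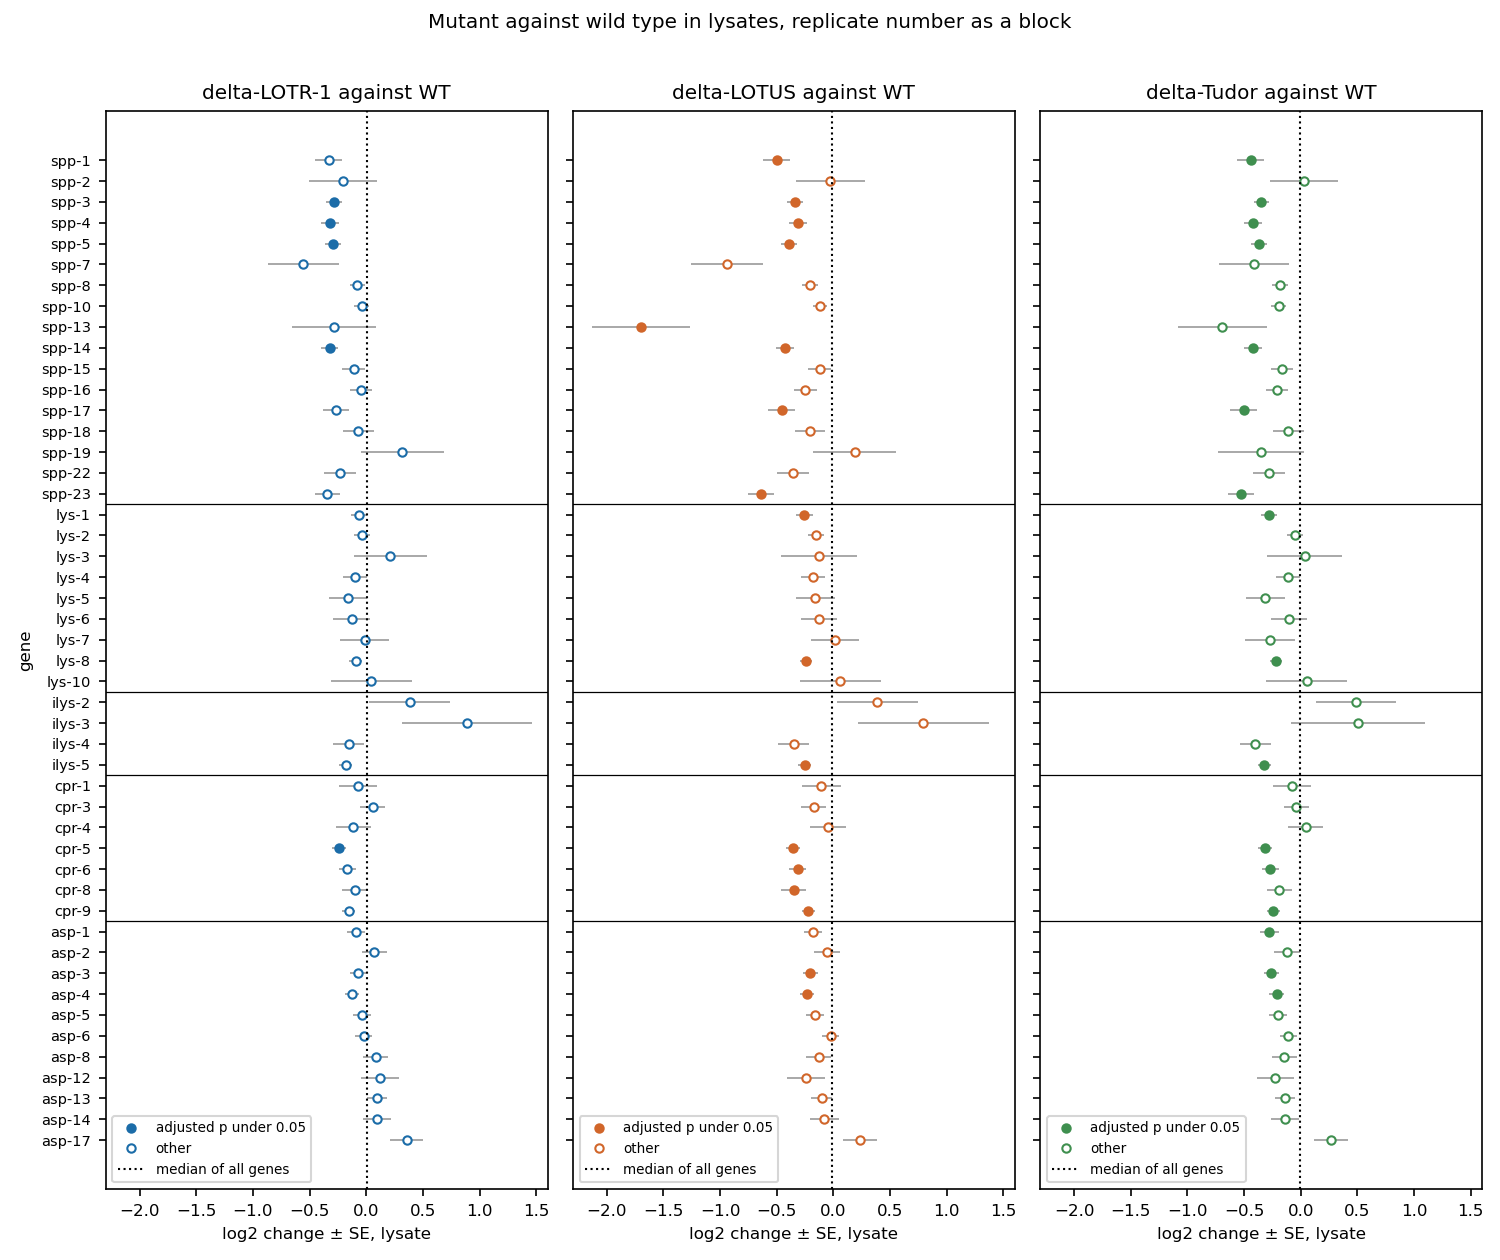
Log2 change of 48 genes in the lysates of each mutant against wild type, with replicate number as a block; bars are standard errors, filled points have an adjusted p under 0.05 and the dotted line is the median of all genes. Every filled point lies left of the line, 5 in delta-LOTR-1, 17 in delta-LOTUS and 16 in delta-Tudor, and spp-13 in delta-LOTUS reaches -1.70. DESeq2 with the block did not call spp-13.

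Leaving out 1 library moved the number of blocked calls in the lysates. In delta-LOTR-1 none of the 5 calls was left without number 1, 2 or 4 of wild type or number 1 or 4 of delta-LOTR-1. There was 1 gene called without number 3 of delta-LOTUS, and 2 without number 2 of delta-LOTR-1, number 1 of delta-Tudor or number 3 of wild type. In delta-LOTUS 5 genes were called without its own number 3. In delta-Tudor 8 were called without its own number 1, and 9 without its number 3 or number 3 of wild type. The genes called in the blocked fit whichever library was left out, with DESeq2 size factors, with library totals, with no filter and by DESeq2 were spp-3, spp-5, spp-14, spp-23 and cpr-5 in delta-LOTUS and spp-4, spp-14, spp-17, spp-23 and cpr-5 in delta-Tudor, and there were none in delta-LOTR-1.

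The changes were small and their number depended on the scaling. With library totals the median of all genes in the blocked fit was 0.12 in delta-LOTR-1, 0.09 in delta-LOTUS and 0.14 in delta-Tudor, and 0, 7 and 5 of the 48 genes were called. Over all genes 5.88% were higher and 1.38% lower in delta-LOTR-1, 16.2% and 6.06% in delta-LOTUS, and 14% and 2.28% in delta-Tudor. The calls common to both scalings were spp-3, spp-5, spp-13, spp-14, spp-17, spp-23 and cpr-5 in delta-LOTUS and spp-4, spp-14, spp-17, spp-23 and cpr-5 in delta-Tudor. Relative to the median of all genes the spp median was -0.28, -0.33 and -0.36 with library totals and -0.27, -0.33 and -0.35 with TMM. Of 9 hypodermis and cuticle markers 0, 5 and 0 were lower in delta-LOTR-1, delta-LOTUS and delta-Tudor in the blocked fit, with medians of -0.38, -1.14 and -0.46. Of 28 lysosome and gut granule genes 0, 3 and 3 were lower and 1, 2 and 0 higher, with medians of -0.00, -0.09 and -0.09. Of 13 intestine markers 1, 3 and 1 were lower in delta-LOTR-1, delta-LOTUS and delta-Tudor with medians of 0.00, -0.09 and -0.09. The summed level of the intestine markers in the lysates was 979.4 to 3006.7 CPM in delta-LOTR-1, 904.0 to 2718.6 in delta-LOTUS, 894.7 to 2896.5 in delta-Tudor and 1060.0 to 2656.3 in wild type. That of the hypodermis and cuticle markers was 1317.3 to 5050.8 in delta-LOTR-1, 1167.9 to 3642.2 in delta-LOTUS, 1062.7 to 3954.1 in delta-Tudor and 1511.0 to 5048.0 in wild type. The lysosome and gut granule genes summed to 2215.7 to 2728.6 in delta-LOTR-1, 1845.1 to 2526.3 in delta-LOTUS, 2087.2 to 2361.1 in delta-Tudor and 2374.6 to 2842.5 in wild type. Their part in the values of the 48 genes was not tested.

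In the polysome libraries the blocked fit called 1 gene, spp-23 in delta-LOTUS, at -0.48 ± 0.11 (adjusted p = 0.0425), and 0 in the other mutants. Over all genes 0.501% were higher and 0.13% lower in the libraries labelled delta-LOTR-1, 0.416% and 0.637% in delta-LOTUS, and 0.195% and 0.0325% in delta-Tudor. For spp-23 the polysome libraries held 38.7, 37.5, 42.2 and 46.8 CPM in those labelled delta-LOTR-1, 27.8, 28.7, 43.9 and 38.2 in delta-LOTUS, 35.8, 29.8, 46.0 and 49.7 in delta-Tudor and 38.7, 34.8, 54.6 and 67.7 in wild type. Each delta-LOTUS value was below the wild type value of its number, although the groups overlapped. With 1 library left out in turn, spp-23 was called in 3 of 16 fits. None of the 49 genes was called without number 1, 3 or 4 of wild type or delta-Tudor, number 1 of the libraries labelled delta-LOTR-1 or any delta-LOTUS library, and 2 were called without number 2 of those labelled delta-LOTR-1. With library totals spp-23 was not called. The polysome changes of spp-14, which passed in no mutant, were -0.22 ± 0.10 in the libraries labelled delta-LOTR-1, -0.25 ± 0.10 in delta-LOTUS and -0.28 ± 0.10 in delta-Tudor. The 3 mutants share the wild type libraries, so their comparisons are not independent of one another.

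Direct comparisons between mutants called none of the genes in either fraction, with or without the block, and none had an unadjusted p under 0.05 without it. Over all genes 0.137%, 0.104% and 0.0715% were called without the block in polysome libraries for delta-LOTUS against those labelled delta-LOTR-1, delta-Tudor against the same and delta-LOTUS against delta-Tudor, and 0.176%, 0.0941% and 0.119% in lysates. At an unadjusted p under 0.05 there were 162, 127 and 151 of 15378 genes in polysome libraries and 204, 153 and 203 of 15939 in lysates. With the block 0.481%, 0.208% and 0.306% were called in polysome libraries and 1.36%, 0.527% and 0.847% in lysates. A difference between mutants in the number of genes called against wild type is therefore not a tested difference between them.

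Translational efficiency, the polysome difference from lysate in a mutant minus that in wild type, was tested as an interaction of strain and fraction. None of the 50 genes was called in any mutant with or without the lysate as a block, by edgeR's quasi-likelihood test, or by DESeq2 without the block. None had an unadjusted p under 0.05 without the block, where 111, 103 and 92 of all 16253 genes did in the libraries labelled delta-LOTR-1, delta-LOTUS and delta-Tudor. Over all genes 0% were called without the block in each mutant, and with it 0.0554% in those labelled delta-LOTR-1, 0% in delta-LOTUS and 0.00615% in delta-Tudor. The polysome libraries labelled delta-LOTR-1 were not separated from wild type by lotr-1 counts, and the values under that label carry this doubt. The interaction was positive in 43 of 50 genes in those libraries, 47 in delta-LOTUS and 44 in delta-Tudor, with medians of 0.11, 0.15 and 0.12 against 0.01, 0.04 and 0.02 over all genes. These counts were not tested, and the 3 share the wild type libraries. The share of all genes with a positive interaction was not counted. The counts are therefore not shown to be particular to these genes. For spp-5 the interaction was 0.10 ± 0.21, 0.20 ± 0.21 and 0.15 ± 0.21 (SE) in those labelled delta-LOTR-1, delta-LOTUS and delta-Tudor, none of which passed the test.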

How the data were processed

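RNA-seq libraries of mRNA were made with a stranded mRNA kit per the labels' protocols. Values were expected counts per gene, which the authors deposited unnormalized in a table named for Salmon. The submitters' processing notes list these tools, Salmon and DESeq2, with no version or role. A second deposited table holds a score per gene, normalized values that the authors adjusted for replicate, by a method that no source used here states. The genome build, annotation and strand setting are also not given in the sources used here.

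Expected counts were rounded to whole numbers (15.3% of positive values were not whole), filtered with filterByExpr, scaled by TMM and tested with edgeR's quasi-likelihood test (R 4.3.3, edgeR 4.0.16, limma 3.58.1), with Benjamini-Hochberg adjustment over all genes tested and a threshold of 0.05. Strain was fitted within each fraction, and strain and fraction together for polysome against lysate and for translational efficiency. Replicate number was tested as a factor beside strain. Alternatives were DESeq2 1.42.0, its size factors, no filter, limma on the log2 of the adjusted table with a pseudocount of 1 CPM, a block for replicate number or lysate, and each library left out in turn. Library totals as the scaling, and the further settings of the blocked fit, were chosen after seeing the data. Scripts were tested on simulated data.

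Replicate numbers were taken to pair the samples: over 7174 genes, deviations of same-numbered libraries of different strains correlated at 0.931 to 0.983 in lysates (24 pairs) and 0.815 to 0.965 in polysome libraries (24 pairs), and those of both fractions of 1 lysate at 0.869 to 0.937 (16 pairs). Different-numbered libraries of different strains correlated at -0.972 to 0.956 in lysates and -0.954 to 0.932 in polysome libraries (72 pairs each). High values were thus not limited to shared numbers. No 2 libraries of a group held the same values. The labels call the replicates biological without saying what was shared, so p-values cover only the spread among these samples. The genes and the comparison lists were chosen with earlier results of these data known. Values in every library are given for the 3 genes of a family with the highest mean CPM (4 for spp, cpr and asp), and other genes were named by the size of their difference among those called with the block, in polysome against lysate or between numbers; spp-23 and spp-13 were also given by library after their values were seen, as were genes named to describe a neighbour or a family. Intervals were not computed for shares, and floors cover counting error only. No sequences were analysed here.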

Additional observations from a re-analysis of the deposited data

Results flagged for a closer look

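In 144 groups of 4 libraries (18 genes in 8 groups), 3 held a library that stood apart from the others of its group, where chance flags about 5 percent of groups. They were the highest libraries for spp-5 in delta-LOTR-1 lysates (number 4, 351 CPM), for asp-3 in delta-LOTUS polysome libraries (number 4, 3020.0 CPM) and for spp-10 in wild type lysates (number 2, 163 CPM).

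For 11 of 50 genes the difference between replicate numbers was not the same in polysome and lysate libraries, by edgeR's quasi-likelihood test of the interaction. That test called 24.1% of all genes, so the count is close to the share over all genes. The adjusted p was 0.000122 for spp-10, 0.000756 for cpr-9, 0.000900 for spp-8, 0.00154 for lys-8, 0.00374 for cpr-5 and 0.00655 for cpr-6. It was 0.00787 for asp-4, 0.00821 for lys-2, 0.0285 for cpr-3, 0.0377 for asp-3 and 0.0430 for ilys-5. In each, the polysome level relative to lysate was higher in numbers 1 and 2 than in numbers 3 and 4. The share of all genes with this order was not counted.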

How the results depend on the processing

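Without the block, no gene was called in a mutant against wild type under any scaling, filter, DESeq2 or left-out library. Limma on the authors' adjusted table called 1 of 48 genes higher in delta-LOTR-1, 9 lower in delta-LOTUS and 6 lower in delta-Tudor lysates, where it called 12.4%, 23.9% and 20.4% of all genes in either direction. Of all 15526 genes it called 1617 higher and 315 lower in delta-LOTR-1, 2725 and 979 in delta-LOTUS, and 2770 and 402 in delta-Tudor. In polysome libraries it called 1 gene higher in those labelled delta-LOTR-1, 2 higher in delta-LOTUS and 0 in delta-Tudor, where it called 1.14%, 5.35% and 0.722% of all genes in either direction. Of all 14954 genes it called 147 higher and 24 lower in those labelled delta-LOTR-1, 706 and 94 in delta-LOTUS, and 99 and 9 in delta-Tudor. Of the genes described here, limma called asp-17 higher in the lysates and polysome libraries labelled delta-LOTR-1. It called asp-17 and spp-10 higher in delta-LOTUS polysome libraries. Both genes are named here after their values were seen. The limma fit had strain as its only term and took no account of the authors' adjustment for replicate. Its p-values may therefore be too low. The replicate block called 5, 17 and 16 in lysates, all lower, and 1 in delta-LOTUS polysome libraries. Within the block, delta-LOTR-1 lysates had 0 calls with no filter and 0 with library totals, delta-LOTUS lysates 7 with library totals, and delta-Tudor lysates 9 with no filter and 5 with library totals. In blocked polysome libraries DESeq2 called 1 gene in those labelled delta-LOTR-1, and in delta-LOTUS 2 were called with no filter, 2 by DESeq2 and 0 with library totals. Over left-out libraries the blocked calls ranged from 0 to 5 in delta-LOTR-1, 5 to 18 in delta-LOTUS and 8 to 16 in delta-Tudor lysates, from 0 to 1 and 0 to 2 in polysome libraries labelled delta-LOTR-1 and delta-LOTUS, and from 0 to 1 for delta-LOTUS against delta-LOTR-1 lysates. Polysome against lysate called 16, 18, 17 and 15 genes in libraries labelled delta-LOTR-1, delta-LOTUS, delta-Tudor and wild type with library totals, 44, 45, 46 and 45 with the lysate as a block, and 37 in wild type with both. The interaction of number and fraction called 17 genes with no filter and 21 with library totals. The share of all genes called in these settings is not given here. Nor is it given for the blocked fits with no filter or by DESeq2, or for the 37. These counts are therefore not read as particular to these genes. As a share of TMM-scaled library sizes, the genes took 2.68% of libraries labelled delta-LOTR-1, 2.50% of delta-LOTUS, 2.51% of delta-Tudor and 2.58% of wild type polysome libraries. The causes were not tested. Single genes were followed only where they had passed the test. For 147 such differences with a sign (polysome against lysate, or mutant against wild type with the block), 4439 of 4884 recomputed values still passed, 445 no longer passed and 0 reversed. For 103 differences between numbers, which have no sign, 2039 of 2133 still passed. Values that had not passed were not followed, and of 859 recomputed summary values 60 moved. Genes near 3 counts in a library are limited by depth.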

Other observations

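In the lysates the 6 vitellogenin genes were all highest in number 2 and all lowest in number 4, and their summed level averaged 48323 CPM in number 1, 52493 in number 2, 37857 in number 3 and 17314 in number 4. The 8 oocyte markers were also all lowest in number 4, whereas the 10 sperm markers were all lowest in number 2 and 9 of them highest in number 4. Of 28 lysosome and gut granule genes 16 were highest in number 4, and of 20 V-ATPase genes 11. Of 19 immune effector genes outside the 5 families 14 were highest in number 4.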
